A study of Mus musculus with 6 samples.

Results

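The platelet-derived growth factor (PDGF) genes are the 4 ligand genes Pdgfa, Pdgfb, Pdgfc and Pdgfd, the receptor tyrosine kinase genes Pdgfra and Pdgfrb, and Pdgfrl, which encodes a receptor-like protein without a kinase. These 7 genes were found by symbol among the 54232 genes of the deposited count table, and all 7 were among the 15376 genes that passed the filter on low counts. They were measured by RNA-seq in primary muscle cells from the mouse oviduct on day 2 of pregnancy, in 3 WT and 3 Pbrm1 conditional knockout (cKO) libraries. Females were 8 to 12 weeks of age. Oviducts were digested with enzymes, and the cells were filtered, plated for 4 h, given fresh medium with serum and collected 2 h later. All 6 libraries therefore come from cells exposed to serum. In the cKO mice, floxed Pbrm1 alleles were recombined by a cre under control of the progesterone receptor gene, so that deletion was directed to every cell type that expressed this receptor and not to muscle as such. The controls are WT by their labels, although a supplementary legend of the study describes them as floxed. No label gives the strain or tells whether a library represents 1 animal, and p-values measure only the spread between these libraries.

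PDGF ligands are secreted dimers that bring together a pair of receptor chains, whose kinase domains then phosphorylate each other and recruit signaling proteins. PDGF-A and PDGF-C act mainly through PDGFRα, PDGF-D mainly through PDGFRβ, and PDGF-B through both. PDGF-A and PDGF-B are cut to their active form inside the cell, whereas PDGF-C and PDGF-D are secreted with a CUB domain that proteases remove outside it. PDGFRβ is known for the recruitment and growth of pericytes and vascular smooth muscle, and PDGFRα marks many fibroblasts and mesenchymal progenitors.

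Pbrm1, the deleted gene, which encodes a component of the PBAF type of SWI/SNF remodeler, was at 170, 183 and 172 CPM (reads of a gene relative to the normalized total of its library) in WT and at 43.4, 50.6 and 42.7 CPM in cKO, so that 26.0% of the WT mean was left (log2 fold change -1.94, SE 0.064, edgeR adjusted p = 9.13e-11). Library totals lay between 15390818 and 18947947 counts, at which 3 counts correspond to 0.159 to 0.193 CPM. All 10 listed smooth muscle marker genes were detected. In WT, Tagln was at 1595 ± 22.2 CPM and Acta2 at 1285 ± 33.5 CPM (SD, n = 3). The lowest in WT, Synpo2, named after its values were seen, was at 24.2 ± 2.17 CPM. Detection in a bulk sample does not give the share of muscle cells. Markers of fibroblasts, leukocytes, epithelium and endothelium were present as well and are given with the results.

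Of the 7 PDGF genes, 6 had an edgeR adjusted p under 0.05 for cKO against WT, where 43.7% of all tested genes did. All 3 receptor-type genes and Pdgfd were higher in cKO (4 genes, where 21.9% of tested genes were called higher), Pdgfa and Pdgfc were lower (2 genes, where 21.8% were called lower), and Pdgfb did not pass the test. For the same 6 genes no cKO library fell inside the WT range of CPM, which was also true of 53.5% of tested genes. Pdgfrl and Pdgfra had the largest differences, and Pdgfra had by far the most counts.

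**Figure D1:**
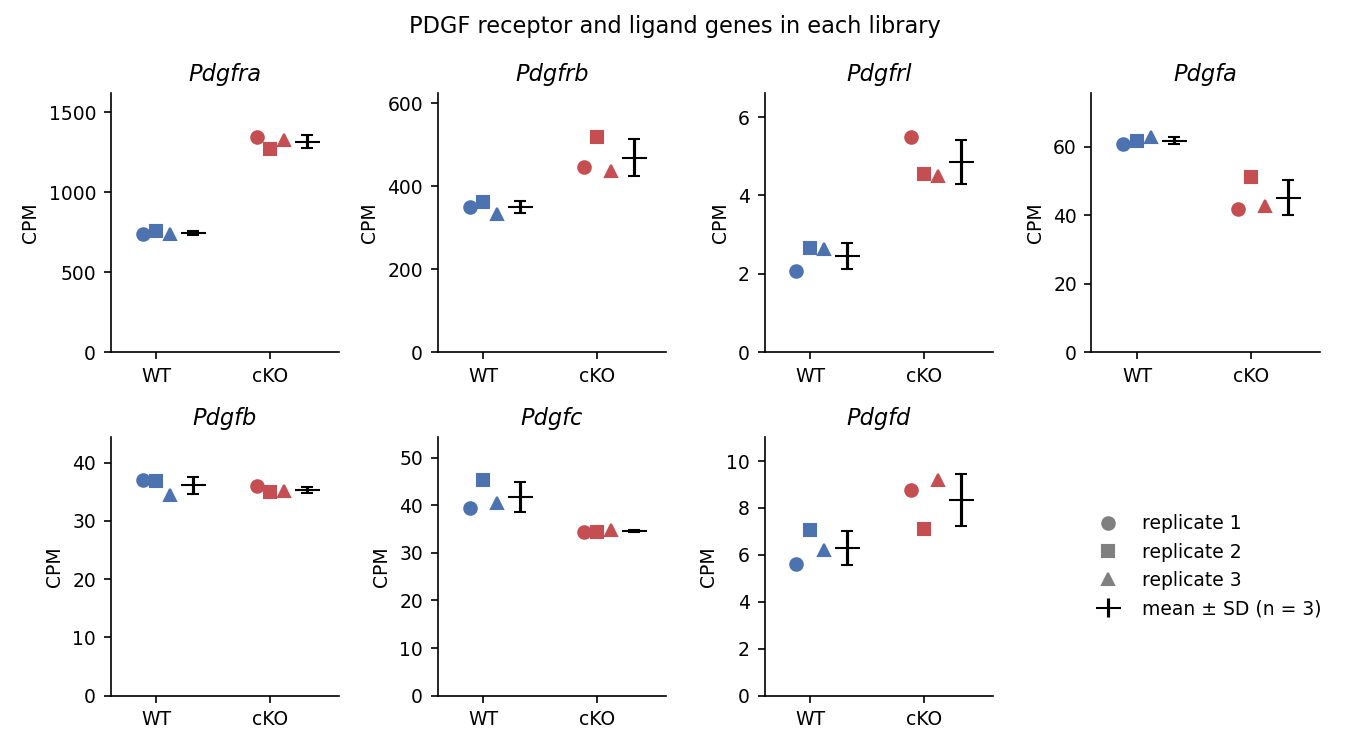
CPM (linear axes from 0) of each PDGF gene in the 3 WT and 3 cKO libraries, with symbols for replicates and black bars for the mean ± SD (n = 3). Pdgfra lies between 738 and 760 CPM in WT and between 1273 and 1349 CPM in cKO, while the groups overlap for Pdgfb alone.

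Pdgfra (ENSMUSG00000029231.15; GRCm38 chromosome 5, 75152292 to 75198215, plus strand) encodes PDGFRα. Its level was 739, 760 and 738 CPM in WT replicates 1, 2 and 3 and 1349, 1273 and 1330 CPM in the cKO replicates. Every cKO library lay well above every WT library, and within a group the libraries were close, with a coefficient of variation of 1.65% in WT and 2.97% in cKO. The mean rose 1.77-fold, from 746 ± 12.3 to 1317 ± 39.1 CPM (mean ± SD of 3 libraries), a log2 fold change of 0.82 (SE 0.043, 95% confidence interval 0.73 to 0.91, edgeR adjusted p = 9.62e-09). Among all tested genes, 5.24% rose by more. These values rest on 12524 to 24040 counts a library, so that counting error was small.

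Pdgfrb (ENSMUSG00000024620.11; chromosome 18, 61045150 to 61085061, plus strand) encodes PDGFRβ. WT libraries had 350, 363 and 334 CPM and cKO libraries 448, 520 and 438 CPM. The groups were separate, and cKO replicate 2 stood above the other cKO libraries. Pdgfrb rose 1.34-fold, from 349 ± 14.3 to 469 ± 44.7 CPM (mean ± SD of 3 libraries), a log2 fold change of 0.42 (SE 0.061, interval 0.29 to 0.56, edgeR adjusted p = 9.07e-05), and without cKO replicate 2 the log2 fold change was 0.35.

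Pdgfrl (ENSMUSG00000031595.9; chromosome 8, 40926212 to 40990785, plus strand) encodes a protein related to the ligand-binding region of the PDGF receptors. It was rare, at 2.07, 2.67 and 2.63 CPM in WT and 5.50, 4.56 and 4.50 CPM in cKO. No cKO library came near the WT range. The mean rose 1.98-fold, from 2.46 ± 0.338 to 4.85 ± 0.564 CPM (mean ± SD of 3 libraries), a log2 fold change of 0.98 (SE 0.17, interval 0.62 to 1.34, edgeR adjusted p = 0.000358). With 35 to 98 counts a library, its interval was the widest of the 7 genes.

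Pdgfa (ENSMUSG00000025856.15; chromosome 5, 138976014 to 138997370, minus strand) encodes PDGF-A, a ligand of PDGFRα. Its level was 60.7, 61.8 and 63.0 CPM in WT and 41.7, 51.2 and 42.6 CPM in cKO. The WT libraries were nearly equal, all cKO libraries were lower, and cKO replicate 2 was the one nearest to WT. Pdgfa fell to 73.1% of WT, from 61.8 ± 1.13 to 45.2 ± 5.25 CPM (mean ± SD of 3 libraries), a log2 fold change of -0.45 (SE 0.072, interval -0.60 to -0.30, edgeR adjusted p = 0.000209). An antisense gene, 6330403L08Rik, overlaps Pdgfa and was counted on its own strand, with means of 7.39 ± 0.575 and 7.28 ± 0.826 CPM in WT and cKO (edgeR adjusted p = 0.879). It was the only gene overlapping a PDGF gene that reached 10 counts in a library.

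Pdgfc (ENSMUSG00000028019.9; chromosome 3, 81036416 to 81214040, plus strand) encodes the other ligand that acts mainly on PDGFRα. WT libraries had 39.4, 45.3 and 40.4 CPM, against 34.4, 34.4 and 34.8 CPM in cKO. The cKO libraries were almost identical and all lay below the lowest WT library. Pdgfc fell to 82.8% of WT, from 41.7 ± 3.16 to 34.5 ± 0.223 CPM (mean ± SD of 3 libraries), a log2 fold change of -0.27 (SE 0.065, interval -0.41 to -0.13, edgeR adjusted p = 0.00396), a small change that 41.0% of tested genes exceeded in size.

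Pdgfb (ENSMUSG00000000489.7; chromosome 15, 79995874 to 80014977, minus strand) encodes PDGF-B, which binds every receptor dimer. Its level was 37.0, 36.9 and 34.4 CPM in WT and 35.9, 35.0 and 35.2 CPM in cKO. All cKO libraries fell inside the WT range. The log2 difference was -0.03 (SE 0.060, edgeR adjusted p = 0.718), and its interval of -0.16 to 0.10 leaves room for small changes in either direction.

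Pdgfd (ENSMUSG00000032006.15; chromosome 9, 6168584 to 6378850, plus strand) encodes the ligand that acts mainly on PDGFRβ. The WT libraries had 5.61, 7.05 and 6.20 CPM and the cKO libraries 8.76, 7.10 and 9.19 CPM. The groups were separate by a narrow gap, since cKO replicate 2 was just above WT replicate 2. Pdgfd rose 1.33-fold, from 6.28 ± 0.725 to 8.35 ± 1.10 CPM (mean ± SD of 3 libraries), a log2 fold change of 0.40 (SE 0.13, interval 0.11 to 0.69, edgeR adjusted p = 0.0259). This was the least secure of the 6 calls. It was lost with DESeq2 (adjusted p = 0.058) and, by edgeR, without WT replicate 1 (adjusted p = 0.102), WT replicate 3 (0.0739), cKO replicate 1 (0.0888) or cKO replicate 3 (0.0919), while the direction was kept in all 14 alternatives.

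**Figure D2:**
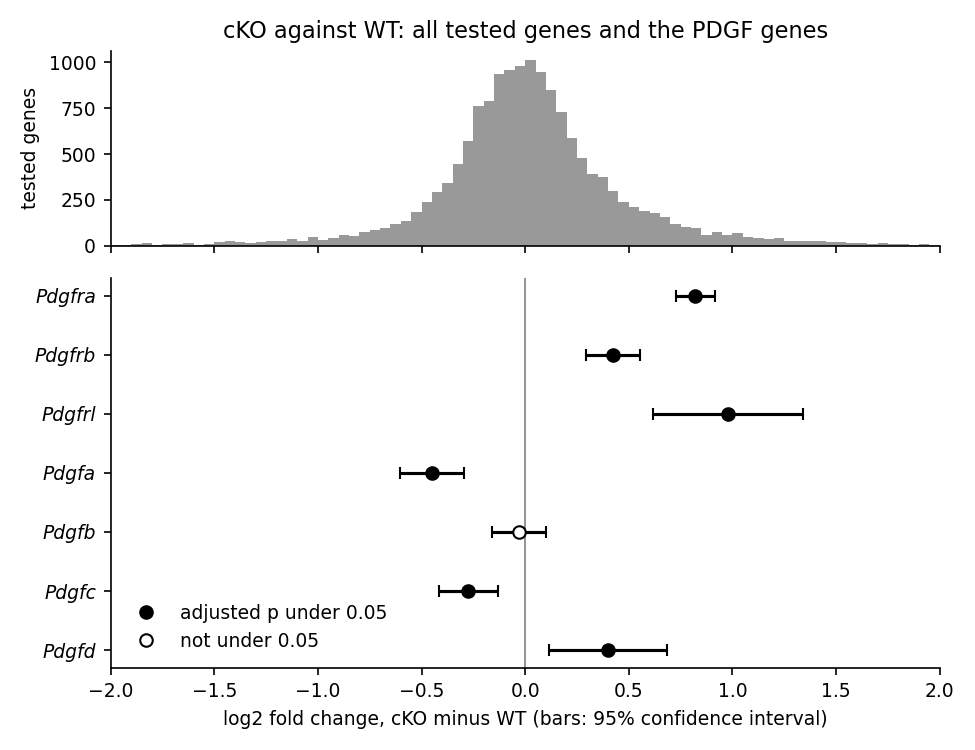
The upper panel is a histogram of the log2 fold changes of 15169 tested genes between -2 and 2 (another 207 lie beyond the axis), and the lower panel gives each PDGF gene with its 95% confidence interval, filled where the edgeR adjusted p was under 0.05. Pdgfra and Pdgfrl lie toward the right edge of the distribution at 0.82 and 0.98, and the interval of Pdgfb spans 0.

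The sequence before the transcription start, as given by RefSeq on GRCm38.p6, was examined for a receptor gene that rose, a ligand gene that fell and a ligand gene that rose. The windows hold 250 bases that end at the base before the RefSeq start and contain no annotated exon. They lie at chr5:75152001-75152250 for Pdgfra, chr3:81036166-81036415 for Pdgfc and chr9:6168236-6168485 for Pdgfd, all on the plus strand, and are written 5′ to 3′. Capitals mark every match, on either strand, to a GC box (GGGCGG), an E box (CANNTG), a TATA box (TATAAA), an AP-1 site (TGACTCA or TGAGTCA) or a CArG box, the sequence bound by serum response factor.
Pdgfra: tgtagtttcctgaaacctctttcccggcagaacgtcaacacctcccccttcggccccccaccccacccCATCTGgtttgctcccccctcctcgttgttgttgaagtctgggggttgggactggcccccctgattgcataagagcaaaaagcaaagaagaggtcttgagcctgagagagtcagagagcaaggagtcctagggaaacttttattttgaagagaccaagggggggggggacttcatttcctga
Pdgfc: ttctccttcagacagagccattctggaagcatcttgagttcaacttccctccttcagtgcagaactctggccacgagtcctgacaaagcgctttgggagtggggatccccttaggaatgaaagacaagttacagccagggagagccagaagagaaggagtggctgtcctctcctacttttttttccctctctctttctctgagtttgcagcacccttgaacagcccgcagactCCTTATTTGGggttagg
Pdgfd: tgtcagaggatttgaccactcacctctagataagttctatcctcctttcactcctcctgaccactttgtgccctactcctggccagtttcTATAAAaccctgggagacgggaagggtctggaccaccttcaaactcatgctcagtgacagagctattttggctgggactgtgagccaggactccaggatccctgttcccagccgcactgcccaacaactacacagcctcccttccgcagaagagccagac
The capitals are an E box in Pdgfra, a CArG box in Pdgfc and a TATA box in Pdgfd. An E box was found in 66.2% of 32851 RefSeq promoter windows of the same length, a TATA box in 12.4% and a CArG box in 1.47%. In Pdgfc, 7 bases separate the CArG box from the RefSeq start, which is also the start of the gene in the count table. The TATA box of Pdgfd ends 154 bases before its start. GC boxes, present in 32.7% of windows, and AP-1 sites, in 4.46%, had no match in these 3 windows. Pdgfa has a pair of RefSeq starts, with 1 and 2 GC boxes and no other of these motifs. Unlike the windows above, those of Pdgfa hold 86 and 232 bases of annotated exon, and both lie inside the gene as counted. Such matches are letters in a window and were not tested for binding.

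To compare genes, CPM was divided by kb of annotated exon, and levels between genes depend on that length. On this scale the order of the 7 genes was the same in WT and cKO. It ran from Pdgfra through Pdgfrb, Pdgfa, Pdgfb, Pdgfc and Pdgfd to Pdgfrl. In WT, Pdgfra was at 74.4 ± 1.23 and Pdgfrb at 63.7 ± 2.60 CPM per kb (SD, n = 3), levels exceeded by only 3.42% and 4.19% of tested genes. The ligands were far lower, with Pdgfa at 19.8 ± 0.361, Pdgfb at 8.68 ± 0.348, Pdgfc at 8.19 ± 0.620 and Pdgfd at 1.99 ± 0.230 CPM per kb. Library ranges of neighbours in this order did not overlap, except those of Pdgfb and Pdgfc in WT. In CPM not divided by length, Pdgfc stood above Pdgfb in WT, with means of 41.7 and 36.1 CPM. In cKO, Pdgfra reached 131 ± 3.90 and Pdgfrb 85.5 ± 8.17 CPM per kb, and Pdgfa was at 14.5 ± 1.68 CPM per kb.

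The balance between the receptors was measured within each library, where library scaling cancels. The ratio of Pdgfra to Pdgfrb, in counts per kb, was 1.15, 1.14 and 1.21 in WT and 1.65, 1.34 and 1.66 in cKO. Every cKO library had the higher ratio, and cKO replicate 2 lay between the other cKO libraries and WT. The log2 ratio differed by 0.40 (0.22 ± 0.041 in WT and 0.62 ± 0.18 in cKO, SD, n = 3). An exact two-sided permutation test gave p = 0.1, the smallest value that 3 against 3 libraries allow.

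Among the ligand genes, Pdgfa held 51.4%, 49.8% and 52.6% of the summed counts per kb in WT and 42.4%, 48.5% and 42.9% in cKO. All cKO libraries were below all WT libraries (51.3% ± 1.44 against 44.6% ± 3.42, SD, n = 3, exact permutation p = 0.1, again the smallest possible). The share of Pdgfd was 5.14% ± 0.461 in WT and 8.20% ± 1.35 in cKO, and that of Pdgfb 22.4% ± 0.965 and 26.3% ± 1.30. The level of Pdgfb itself did not pass its test, as given above. Pdgfc held 21.2% ± 1.05 and 20.9% ± 0.840. Of counts not divided by length, Pdgfa held 42.4% in WT and 36.6% in cKO. Pdgfc held 28.5% and 28.0% of them, and Pdgfb 24.8% and 28.7%. The receptor genes Pdgfra and Pdgfrb together exceeded the 4 ligand genes 3.57 ± 0.0628-fold in WT and 6.70 ± 0.149-fold in cKO (SD, n = 3; exact permutation p = 0.1).

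**Figure D3:**
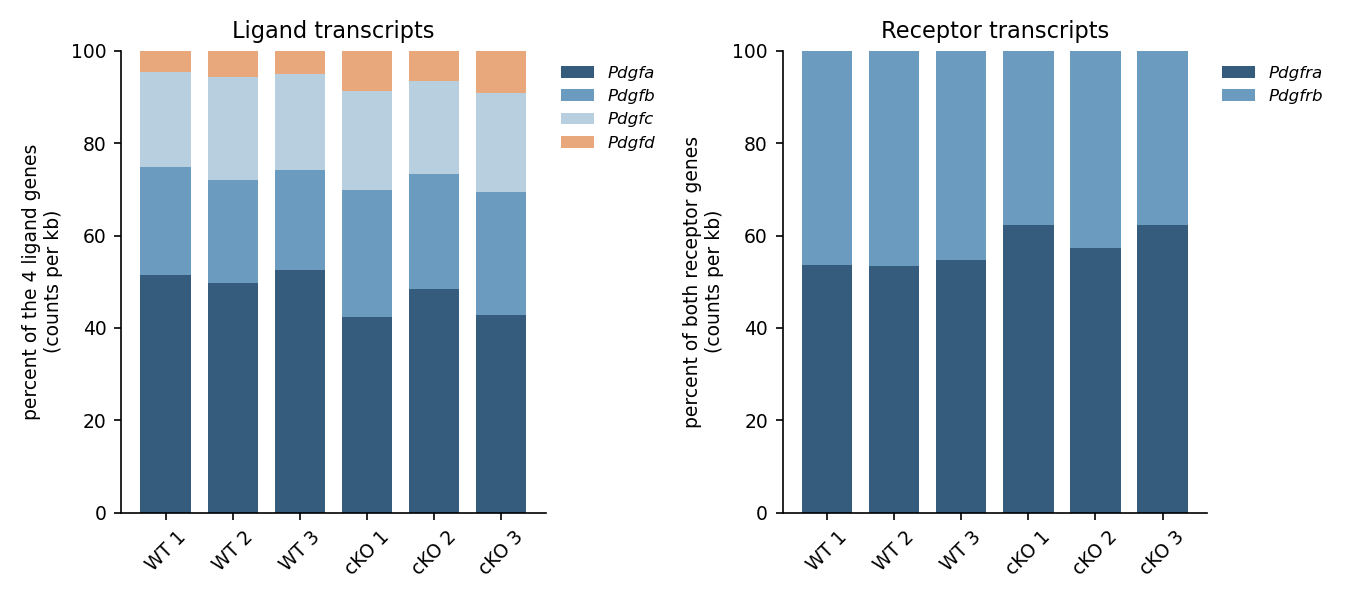
Percent of the summed counts per kb held by each ligand gene (left) and by each receptor gene (right) in each of the 6 libraries, on axes from 0 to 100. The Pdgfa part of the bars is smaller in the cKO libraries, from 42.4% to 48.5%, than in the WT libraries, from 49.8% to 52.6%, and the Pdgfra part of the receptor bars is larger.

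Among genes whose products process or bind PDGF ligands, calls went in both directions. Of 15 listed genes, 14 were tested, 4 were higher and 5 lower (64.3%, where 43.7% of all tested genes were called), and the median log2 fold change was -0.03, where that of all tested genes was 0.00. Nrp1, which encodes neuropilin 1, a co-receptor for several growth factors, was at 187 to 190 CPM in WT and 320 to 328 CPM in cKO (log2 fold change 0.77, SE 0.041, edgeR adjusted p = 1.01e-08). Cspg4 encodes the NG2 proteoglycan, which binds PDGF-A. It was at 102, 86.4 and 84.6 CPM in WT and 45.8, 73.6 and 47.9 CPM in cKO, with cKO replicate 2 nearest to WT as for Pdgfa (log2 fold change -0.70, SE 0.14, edgeR adjusted p = 0.000962). Plat, whose product tissue plasminogen activator cuts PDGF-C to its active form, rose by 0.57 on the log2 scale (edgeR adjusted p = 7e-07). Plaur, the receptor of urokinase, fell by 0.57 (edgeR adjusted p = 6.88e-06). Urokinase itself, encoded by Plau, activates PDGF-D. Plau, named here after its values were seen, fell by 0.18 (edgeR adjusted p = 0.0144). Leaving out WT replicate 2 left 3 genes of the list lower.

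Genes that carry the receptor signal showed no common direction. Of 33 adaptor, kinase and transcription factor genes, all tested, 7 were higher and 8 lower, a share of 45.5% that is near the 43.7% of all tested genes, with a median log2 fold change of -0.03. Stat3, a transcription factor also activated by cytokine receptors, rose by 0.49 on the log2 scale (edgeR adjusted p = 1.95e-06) and Pik3r1, the regulatory subunit of PI3-kinase, by 0.43, while Pik3cb, a catalytic subunit, fell by 0.55. Without cKO replicate 1 the count of lower genes was 5.

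Among 17 genes that end or restrain receptor signaling, 5 were higher and 6 lower (64.7% called, against 43.7% of all tested genes, median -0.09). Spry1, a feedback inhibitor of receptor tyrosine kinase signaling, rose from a range of 19.6 to 21.6 CPM to one of 37.3 to 39.3 CPM (log2 fold change 0.89, SE 0.066, edgeR adjusted p = 2.53e-07). The phosphatase genes Acp1 and Ptprj, whose products can dephosphorylate PDGFRβ, rose by 0.60 and 0.53 on the log2 scale. Cbl, a ubiquitin ligase that marks activated receptors for degradation, fell by 0.32 (edgeR adjusted p = 0.0136), a call lost without cKO replicate 1 (adjusted p = 0.0726). The count of lower genes was fragile, at 1 without cKO replicate 1 and at 3 without WT replicate 1, WT replicate 2 or cKO replicate 3.

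Of 16 genes induced early by growth factors and serum, 6 were higher and 5 lower (68.8% called, against 43.7% of all tested genes, median -0.09). Fos, a component of the AP-1 transcription factor, was at 35.7, 31.9 and 29.9 CPM in WT and 60.6, 53.9 and 62.0 CPM in cKO (log2 fold change 0.85, SE 0.074, edgeR adjusted p = 9.83e-07). Ccl2, a chemokine for monocytes, rose by 0.63 on the log2 scale, whereas the transcription factor genes Egr3 and Klf5 fell by 0.59 and 0.50. These genes also respond to tissue dissociation and to serum, and all libraries went through both.

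Related receptors and ligands were compared last. The receptor genes Kit, Csf1r and Flt3 belong to the same receptor class as the PDGF receptors, and the vascular endothelial growth factors (VEGF) are structural relatives of the PDGF ligands. Of 15 such genes, 14 were tested, 5 were higher and 2 lower (median 0.10), a share of 50% that is near the 43.7% of all tested genes. Vegfd, a ligand for lymphatic and vascular endothelium, was at 3.84, 4.38 and 4.15 CPM in WT and 19.6, 12.9 and 21.1 CPM in cKO, with no overlap (log2 fold change 2.10, SE 0.17, edgeR adjusted p = 6.42e-07). Kdr, a VEGF receptor gene, fell from a range of 174 to 186 CPM to one of 88.2 to 111 CPM (log2 fold change -0.87, SE 0.068, edgeR adjusted p = 3.65e-07), and Vegfc fell by 0.67 on the log2 scale. Csf1r, the receptor of macrophage colony stimulating factor, rose by 0.59. The count of higher genes was 3 with DESeq2 and without WT replicate 2, WT replicate 3 or cKO replicate 1.

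**Figure D4:**
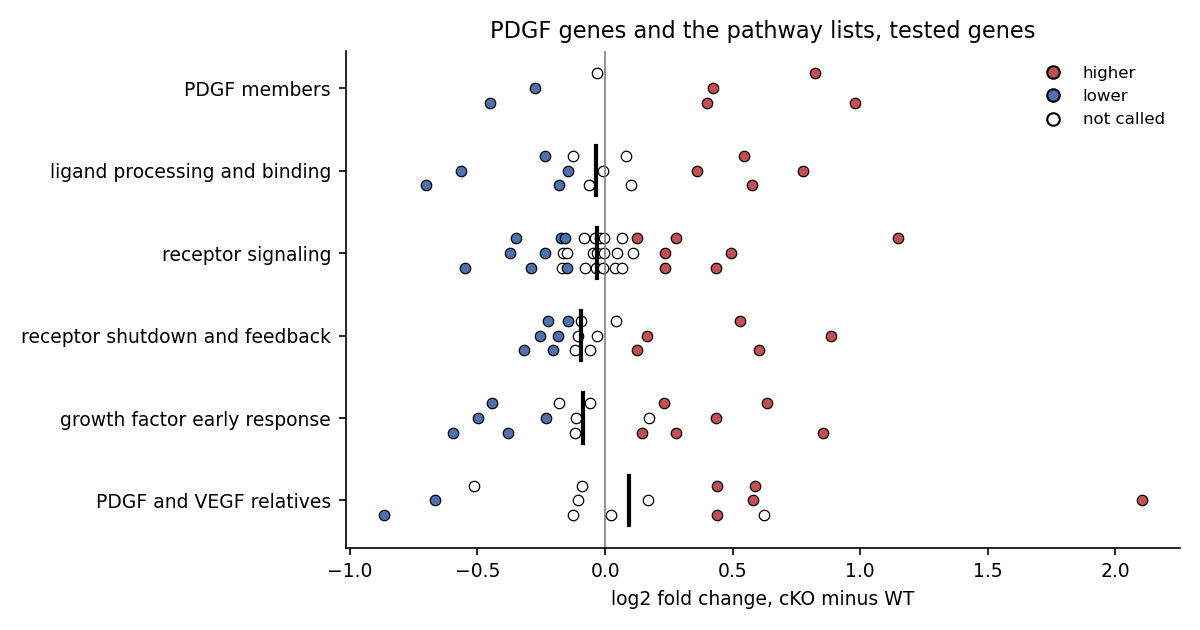
Log2 fold change (cKO minus WT) of every tested gene in the PDGF family and in the 5 pathway lists, red where called higher, blue where called lower and white where not called, with a black bar at the median of each pathway list. Called genes lie on both sides of 0 in each list, and the medians of the pathway lists lie between -0.09 and 0.10.

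Several of these relatives sit beside the PDGF receptor genes in the genome, and they did not all move with them. Downstream of Pdgfra follow Kit, at a distance of 377 kb, and Kdr, at 735 kb. Kit was rare, with means of 3.34 ± 0.376 and 4.53 ± 0.249 CPM in WT and cKO (SD over 3 libraries, log2 fold change 0.44, edgeR adjusted p = 0.0297), and its call was lost with DESeq2 (adjusted p = 0.116) and without WT replicate 2 (0.106), WT replicate 3 (0.0884), cKO replicate 1 (0.0561) or cKO replicate 3 (0.0914). Kdr moved opposite to Pdgfra. Csf1r lies 20.5 kb from Pdgfrb and rose with it. Hmgxb3, at 46.2 kb on the same side, fell by 0.22 (edgeR adjusted p = 0.00965), a call lost in 1 of 14 alternatives. Beside Pdgfrl, Slc7a2, a transporter of cationic amino acids at a distance of 3.90 kb, rose (log2 fold change 1.06, edgeR adjusted p = 3.24e-08), while Mtus1, only 0.129 kb away on the other side, fell by 0.45 (edgeR adjusted p = 2.86e-05). Of the 28 nearest protein-coding neighbours of the 7 genes, 20 were tested, 8 were higher and 5 lower, or 65.0% where 43.7% of all tested genes were called. Apart from those named in the pathway lists, 18 neighbours were tested, and 6 of them changed their call in an alternative (21 of 252 values). Dcun1d5, beside Pdgfd, lost its call in 6 of 14 alternatives. The neighbours were chosen after the data were seen.

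The PDGF receptor genes are themselves used as markers of cell types that may be present beside muscle. In a bulk sample, a change in the number of cells of a type and a change in RNA per cell cannot be told apart. Of 12 fibroblast markers, 11 were tested, 8 were higher and 1 lower (81.8% called, where 43.7% of all tested genes were called and 21.9% were called higher, median log2 fold change 0.71), and their summed level was 4667 to 5256 CPM in WT against 6796 to 7084 CPM in cKO. Most of these sums came from Col1a1, with means of 2609 and 2761 CPM, and Col3a1, with means of 1415 and 2571 CPM in WT and cKO. Col3a1 was higher (log2 fold change 0.86), and Col1a1 did not pass the test (0.08, edgeR adjusted p = 0.453). Dpt was the lower one, with means of 53.4 ± 3.62 and 34.0 ± 4.90 CPM (SD over 3 libraries), and is named after its values were seen. All 6 tested pericyte markers of 8 were called higher, where 21.9% of all tested genes were (median 0.99). Their sums were 47.2 to 50.5 CPM in WT and 71.0 to 91.5 CPM in cKO. Abcc9 was at 1.38 and Mcam at 0.35, and the CPM ranges of the groups overlapped for Mcam. Without WT replicate 3 or cKO replicate 1, the number called was 5. Cspg4, also a known pericyte marker but not in this list, fell by 0.70, as given above. Smooth muscle markers also moved, with 6 of 10 higher and 1 lower (70.0% called, median 0.29) and sums of 3666 to 3748 CPM and 4623 to 5229 CPM. Their part in the differences of Pdgfra and Pdgfrb was not tested.

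Platelets and macrophages are known sources of PDGF ligands. Of 12 leukocyte markers, 10 were tested, 8 were higher and none lower (80.0% called, where 43.7% of all tested genes were, median 0.64). Their sums were 686 to 739 CPM in WT and 1036 to 1107 CPM in cKO, mostly from Lyz2, with means of 452 and 620 CPM. Lyz2 and Adgre1 each rose by 0.46. All 3 tested platelet markers of 6 were higher (median 0.85; sums of 96.1 to 104 and 212 to 275 CPM), with Pf4, which macrophages also express, at 1.39 and Ppbp at 0.83. Most of the platelet sums came from Pf4, with means of 81.1 CPM in WT and 213 CPM in cKO. The platelet receptor genes Gp9 and Gp1ba were at 0 counts in all 6 libraries. Gp6, named after its values were seen, had 0 to 4 counts. Endothelial markers had 3 of 10 higher and none lower (30.0% called, below the share of all tested genes, median 0.05; sums of 235 to 247 and 238 to 278 CPM), with Pecam1 at 0.13 and Emcn at -0.13, neither past the test. Of 10 epithelial markers, 5 were higher and 1 lower (60.0% called, median 0.17). Their sums were 963 to 1051 CPM in WT and 1073 to 1197 CPM in cKO, with Krt8 at 0.18 and Krt18 at 0.17. Epcam rose most, by 1.07, and Wfdc2, the lower one, was at -0.70. Both are named after their values were seen. Mesothelial markers had 1 of 6 higher and 3 lower (66.7% called, median -0.21; sums of 333 to 340 and 354 to 384 CPM). Krt19 was the higher one, at 0.79, with means of 125 and 215 CPM, Wt1 was at -0.03, and the lower ones, named after their values were seen, were Bnc1 (-0.90), Msln (-0.82) and Lrrn4 (-0.37). Of 5 interstitial pacemaker markers, 4 were tested, 2 were higher and 1 lower (75% called, median 0.16). Their sums were 383 to 439 CPM in WT and 285 to 333 CPM in cKO. Most of these sums came from Gja1, the lower gene, with means of 369 and 276 CPM. Gja1 was at -0.42 and Ano1 at -0.11. Pdgfa and Pdgfc were lower where the sums of the leukocyte and platelet marker lists were higher. Whether platelets were present, and the part of leukocytes or platelets in the ligand differences, was not tested.

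**Figure D5:**
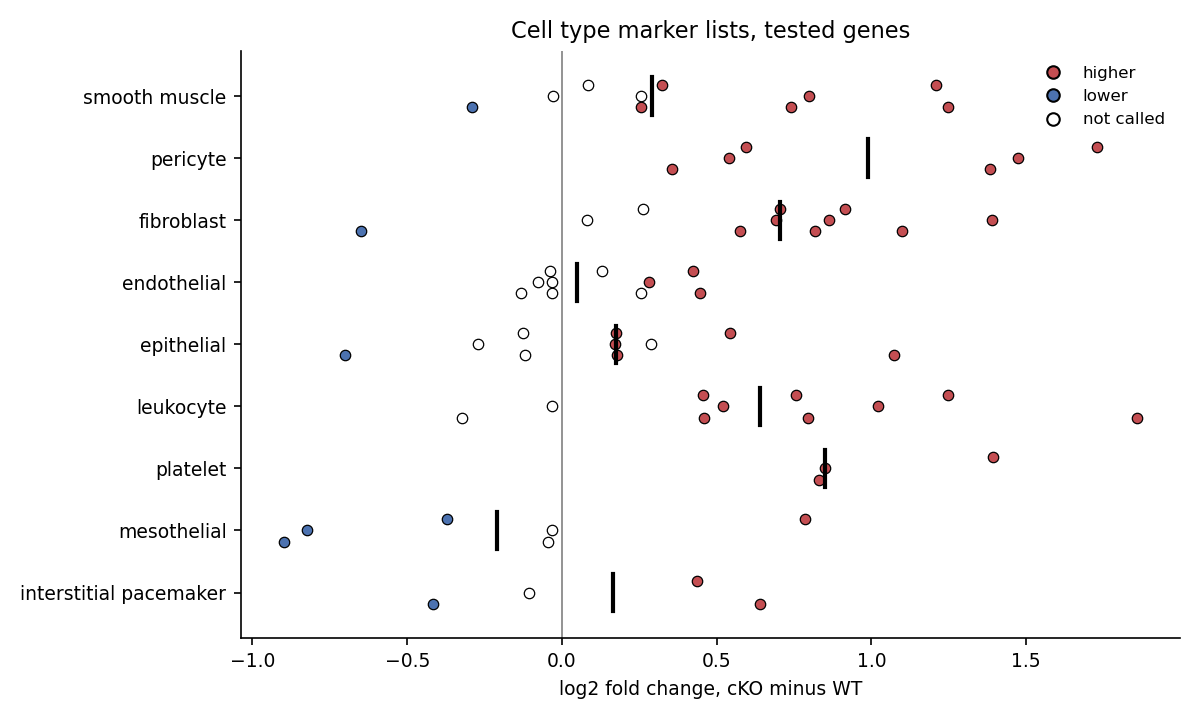
Log2 fold change (cKO minus WT) of every tested gene in the 9 cell type marker lists, red where called higher, blue where called lower and white where not called, with a black bar at each median. The medians run from -0.21 for mesothelial to 0.99 for pericyte markers.

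The genes whose log2 CPM followed each PDGF gene most closely over the 6 libraries were found among 10599 protein-coding genes. For Pdgfra these were Pik3ap1 and Arhgap6 (Pearson r = 0.999 for both), and for Pdgfrb Mtmr3 and Oxtr (0.998 for both), the latter encoding the oxytocin receptor. Pdgfrl was followed by Tbc1d8b (1.00) and Man1a (0.998). Among the ligands, the closest genes were Lrrc41 and Tmeff1 for Pdgfa (0.999 for both), Ltn1 (0.990) and Mief1 (0.989) for Pdgfc, Abl1 (0.999) and Clptm1 (0.955) for Pdgfb, and Gpcpd1 (0.997) and Dapk3 (0.996) for Pdgfd. The points are 6 libraries in 2 groups, and any gene that differs between the groups gains from that difference. Genes above r = 0.9 accordingly numbered 1999 for Pdgfra and 1552 for Pdgfa, but 18 for Pdgfb. Every gene named here, those for Pdgfb included, was picked as a best match among 10599 genes. With only 6 points, a high r can arise from that choice alone.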

How the data were processed

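RNA-seq libraries of 3 WT and 3 Pbrm1 cKO preparations of oviductal smooth muscle cells were compared. The authors deposited whole-number read counts per gene, not normalized. The submitters' processing notes name cutadapt, HISAT2 and GRCm38.p5, and the file header names featureCounts 1.6.4 in reverse-stranded mode with otherwise default options, which drop reads that map to several places. Symbols were found for 54079 of 54232 genes (99.7%), and no row lacked a gene.

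CPM and log2 fold changes came from edgeR 4.0.16 in R 4.3.3 (TMM scaling, filterByExpr, quasi-likelihood F-test, two-sided, Benjamini-Hochberg over 15376 genes, threshold 0.05). The SE was the absolute log2 fold change over the square root of F. Levels between genes used exon length from the table. Log2 CPM for likeness had a prior count of 2. Intervals cover replicate spread, and limits of 3 counts cover counting error only. The biological coefficient of variation was 5.32%. Replicates of a group differed by more than sampling noise (chi-square per gene 1.28 to 1.59 over 2239 genes). The largest values, 1.48 and 1.59, came from the pairs that include cKO replicate 2.

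The 7 genes, all lists and alternatives were chosen with earlier results of these data known. Named were the 7 genes, up to 4 called genes at 1 CPM or more per pathway list by size of change, 2 genes per marker list by WT level, and 2 genes at 5 CPM or more per PDGF gene by Pearson r; 1 gene that this rule names is not reported here, and others are said to be named after their values were seen. Alternatives were DESeq2 1.42.0, limma-voom (limma 3.58.1), 3 other scalings, 2 other filters, the replicate number as a block, and each library left out. Marker lists and neighbouring genes were added to these alternatives after the data were seen. Scripts were tested on simulated data. Promoter windows were found for 4 of the 7 genes; Pdgfb, Pdgfrb and Pdgfrl had no entry.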

Additional observations from a re-analysis of the deposited data

How the results depend on the processing

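Across 14 alternatives, Pdgfra (log2 fold changes 0.80 to 0.85), Pdgfrb (0.35 to 0.47), Pdgfrl (0.87 to 1.05), Pdgfa (-0.55 to -0.39) and Pdgfc (-0.32 to -0.21) held the same direction with an adjusted p under 0.05, and Pdgfb was above it in each (-0.06 to -0.01). Pdgfd did not: with DESeq2 its log2 fold change was 0.40 (adjusted p = 0.058), and with 1 library left out it ranged from 0.32 to 0.51 (adjusted p = 0.00406 to 0.102). The number of PDGF genes called was 5 or 6 in every alternative. With 1 library left out, lower genes numbered 3 to 6 for ligand processing and binding, 5 to 8 for receptor signaling and 1 to 6 for receptor shutdown and feedback, and higher genes 3 to 7 for the PDGF and VEGF relatives, of which DESeq2 called 3. The other list counts stayed within 1.5 times. Of 280 values for the 20 named pathway genes, 1 changed its call, that of Cbl without cKO replicate 1. For the lists of cell type markers, the epithelial count fell from 6 to 3 without WT replicate 1 and the interstitial pacemaker count from 3 to 1 with DESeq2 or without WT replicate 2, WT replicate 3 or cKO replicate 1. The cause of these changes was not tested.

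Same-numbered WT and cKO libraries deviated together by correlations of -0.02, 0.04 and 0.09, and the labels give the numbers no meaning, so they were not taken as pairs. The fit with the replicate block called 6908 genes, 6617 of them among the 6723 called without it, with Pdgfra at 0.82 and Pdgfd at 0.40, and it changed no call among the PDGF genes. Permuting within pairs, the ratio of Pdgfra to Pdgfrb had p = 0.25, the smallest that 3 pairs allow by an exact permutation test. DESeq2 called 5535 genes in all. The fit without cKO replicate 2 called 7054, and those without any other library 5532 to 5866. Other scalings moved the higher share of called genes to between 47.6% and 53.3%. Depth limits mainly Pdgfrl and Pdgfd, with 35 to 98 and 95 to 156 counts a library.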
